A study of Homo sapiens with 28 samples.

Results

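The RNAs described here are 7 non-coding transcripts, RN7SK, RN7SL1, RN7SL2, RMRP, RPPH1, SCARNA2 and TERC. They were chosen by gene symbol as the 7 rows that carry these names among 57820 genes in the count table of each of 28 RNA-seq libraries. The libraries came from SEM, a human B-cell precursor acute lymphoblastic leukaemia line that carries an MLL-AF4 fusion, and the study asked how transcription responds when the architectural protein CTCF is removed with an auxin-inducible degron. In the 24 h experiment, CTCF-AID2 cells (endogenous CTCF tagged with AID and mClover3, with constitutive OsTIR1(F74G) and an inducible wild-type OsTIR1) were sequenced after 5-Ph-IAA (4 libraries) and untreated (4 libraries), and wild-type SEM cells (WT SEM) after IAA (2 libraries) and untreated (2 libraries). In the 6 h experiment, 4 CTCF-AID2 derivatives carrying an inducible HA-tagged CTCF that was full-length (WT line) or lacked zinc finger 1 (dZF1), zinc finger 10 (dZF10) or the RNA-binding region (dRBR) were sequenced with IAA and untreated (2 libraries each). The titles give 1 µM 5-Ph-IAA for 24 h while the protocol text gives another dose, WT SEM received doxycycline with IAA in the study's methods but the labels name only IAA, and for the 6 h lines the study's methods describe 5-Ph-IAA and doxycycline while the labels name only IAA, so that the compound, and the libraries in which the added CTCF was induced, are not settled. All 4 of the 6 h lines share the tagged CTCF and the OsTIR1(F74G) transgene, and the 6 h WT line is not the 24 h WT SEM. The labels do not say that replicates were separate cultures, so p-values measure the spread between libraries, which may be technical.

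RN7SK, RN7SL1, RN7SL2, RMRP and RPPH1 are made by RNA polymerase III and work as the RNA scaffolds of protein complexes, whereas SCARNA2 and TERC are made by RNA polymerase II. RN7SK holds the elongation kinase P-TEFb in an inactive particle, the RN7SL RNAs form the core of the signal recognition particle that targets nascent secretory proteins to the endoplasmic reticulum, and RMRP and RPPH1 are the RNAs of RNase MRP (ribosomal RNA processing) and RNase P (transfer RNA processing). SCARNA2 is a Cajal body RNA that guides methylation of a spliceosomal RNA, and TERC is the template RNA of telomerase. In libraries depleted of ribosomal RNA, RN7SK and the RN7SL RNAs can take a large share of reads. These RNAs belong to families with many near-identical copies in the genome.

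Near-identical copies bear on how reads were assigned, and RN7SK shows this. The first 120 bases of RN7SK (chr6:52860418-52860537, plus strand) and of its annotated copy RN7SKP203 (chr2:76672417-76672536, minus strand) are given from GRCh37, with capitals where RN7SKP203 differs from RN7SK.
RN7SK: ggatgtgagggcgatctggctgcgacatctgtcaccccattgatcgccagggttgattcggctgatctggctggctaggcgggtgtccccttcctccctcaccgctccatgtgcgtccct
RN7SKP203: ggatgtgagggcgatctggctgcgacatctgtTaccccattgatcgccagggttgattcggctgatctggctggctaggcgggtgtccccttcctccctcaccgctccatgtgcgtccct
RN7SK and RN7SKP203 were 92.6% identical over their aligned bases. Of the 231 windows of 1 read length in RN7SK, 18.6% were present unchanged in RN7SKP203 and 49.8% were found in none of 292 annotated RN7SKP genes. A read inside a shared window fits either gene, unless its mate in these paired-end libraries lies in a stretch that differs. Mates were left out of the window shares. RN7SL1 and RN7SL2 are near-identical to each other as well, so the split of reads between them is an estimate, and their sum is given beside each.

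Other genes overlap or lie next to several of the RNAs. RMRP, found by symbol under another gene identifier, lies at chr9:35657751-35658014 (minus strand), 273 bases from CCDC107. The identifier that the files name RPPH1 lies at chr14:20811207-20811844 (minus strand) and overlaps PARP2 on the opposite strand, and the libraries were described as stranded. SCARNA2 lies at chr1:109642815-109643241 (plus strand) and TERC at chr3:169482308-169482848 (minus strand). These positions come from a later gene annotation than the study's, so the stretches that were counted may differ.

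Library totals ran between 25834000 and 60730800 counts. The B-cell identity of the line was visible in 7 of 7 B precursor markers above 1 CPM. Their summed level was 908 to 1339 CPM per library. T and NK markers summed to 14.02 to 27.3 CPM, with CD3D at 0 and NKG7 at 14.02 to 27.3 CPM. Myeloid markers summed to 13.7 to 64.4 CPM, with S100A8 at 0, LYZ at 2.84 to 46.2 CPM and CSF1R at 9.17 to 26.5 CPM. VPREB3, the lowest of the B precursor markers, was at 3.78 to 15.3 CPM, which overlapped NKG7, LYZ and CSF1R. Erythroid markers summed to at most 0.030 CPM. CTCF is removed as a protein in this design, so its mRNA does not check the treatment. 2 features of the libraries touch the results. The 4 WT SEM libraries were assigned differently from the other 24. Values with any decimal part as deposited, with no tolerance, made up 7.10% to 7.52% of genes with a count in WT SEM, against 16.8% to 19.5% in the other 24 libraries. The second feature is the dZF1 library with IAA, replicate 2. In it the small nucleolar RNA SNORD3A took 0.0366% of counts, against 0.529% to 1.74% in the other 15 libraries of the 6 h experiment. The 0.529% was dRBR untreated replicate 1 alone, and the next lowest was 1.35%, in dZF10 untreated replicate 2. Other small nucleolar and Cajal body RNAs were low in the dZF1 library too. With SNORD3A they took 0.209% of counts, against 0.772% to 2.06% in the other 15. Small nuclear RNAs took 0.275%, against 0.455% to 1.25%.

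The 7 RNAs together took 9.35% to 13.7% of library counts (median 11.2%, 28 libraries). RN7SK was the gene with the most counts in both experiments, RN7SL1 the second and RN7SL2 the third, and RPPH1 and RMRP ranked 6 and 7. SCARNA2 ranked 353 at 24 h and 411 at 6 h, and TERC 1705 and 2117. RN7SK made up 3.36% to 5.28% of counts (median 4.38%), RN7SL1 1.89% to 3.77% (median 2.84%) and RN7SL2 1.24% to 3.35% (median 2.62%). RPPH1 made up 0.750% to 1.49%, RMRP 0.292% to 0.806%, SCARNA2 0.0140% to 0.0517% and TERC 0.00410% to 0.0152%. The summed share varied less between libraries than the shares of SCARNA2 and TERC did.

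**Figure D1:**
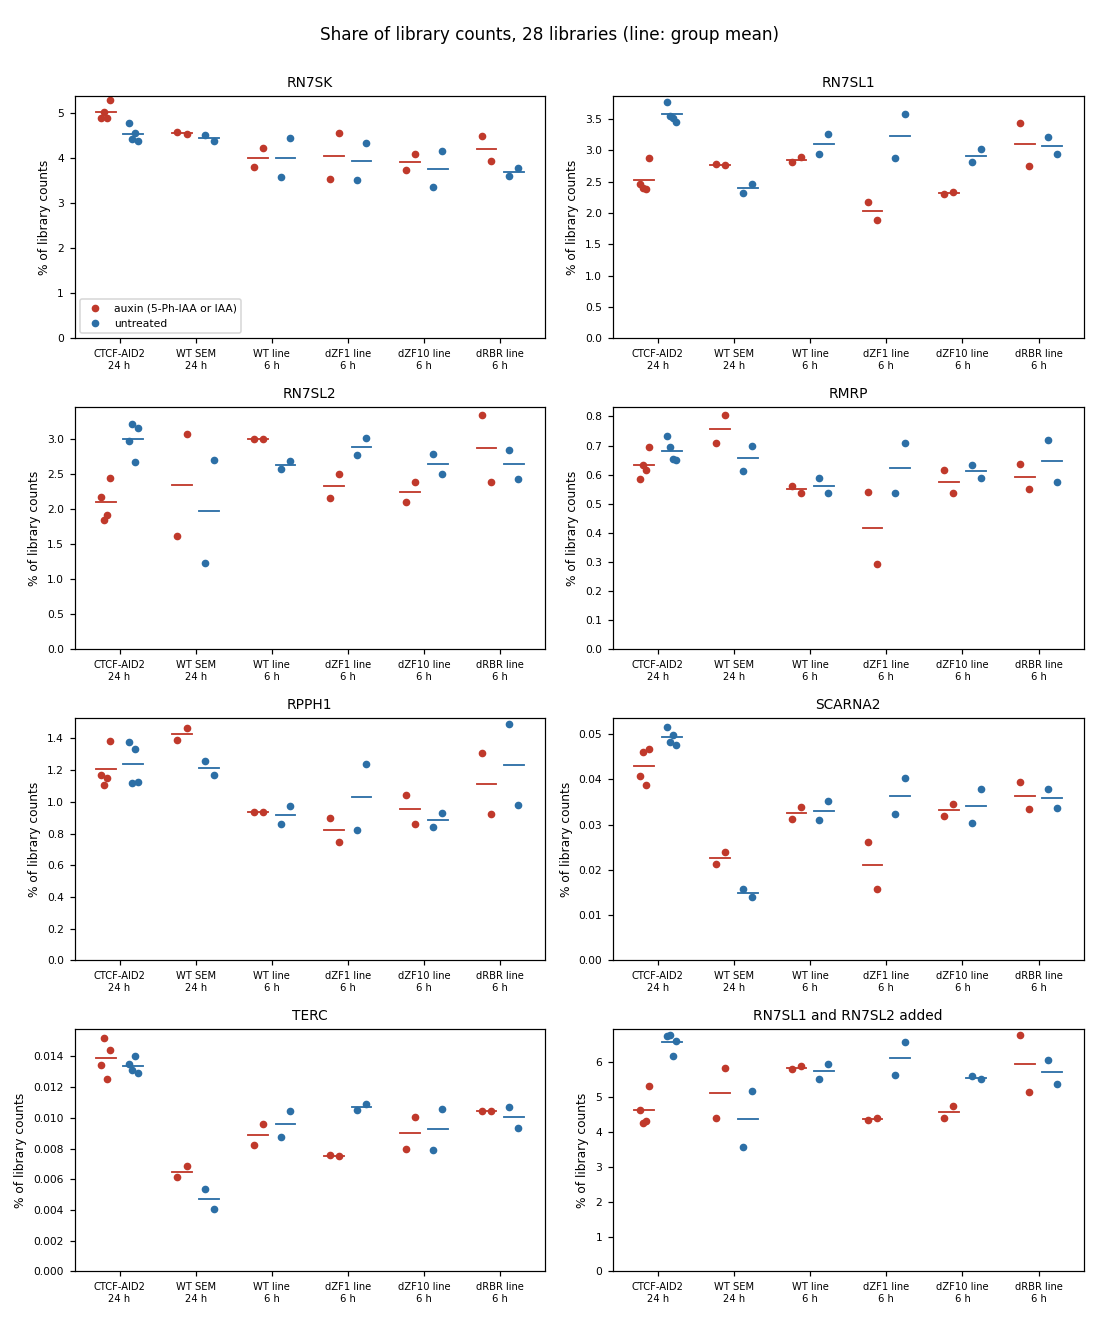
Percent of library counts for each of the 7 RNAs, and for RN7SL1 and RN7SL2 added, in the 28 libraries (points), with auxin libraries left of untreated ones and a line at each group mean. RN7SL1 in CTCF-AID2 cells lies between 2.38% and 2.87% with 5-Ph-IAA and between 3.45% and 3.77% untreated.

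By TPM, a level per length, the 7 RNAs kept the order they had by counts in both experiments. The deposited TPM values, which divide by an effective length (the number of positions at which a fragment can start), gave the 7 RNAs 27.5% to 44.98% of all TPM. The 44.98% was the dZF1 library with IAA, replicate 2, and the next highest was 42.5%, in CTCF-AID2 untreated replicate 2. The effective length, recovered from the deposited counts and FPKM, was 125 to 160 bases for RN7SK, 96.5 to 128 bases for RN7SL1, 70.8 to 98.3 bases for RMRP, 127 to 165 bases for RPPH1, 206 to 247 bases for SCARNA2 and 246 to 294 bases for TERC. RPPH1 spans 638 bases at the position given above and RN7SK 331, yet their effective lengths were alike. The RPPH1 position is thus not a guide to the length that was counted. A short effective length raises TPM for the same count. RMRP had fewer counts than RPPH1 in each of the 28 libraries, while its median level was 28376 TPM, against 30118 TPM for RPPH1. On the TPM scale RN7SK ranked 1 in both experiments, and TERC 330 at 24 h and 375 at 6 h.

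**Figure D2:**
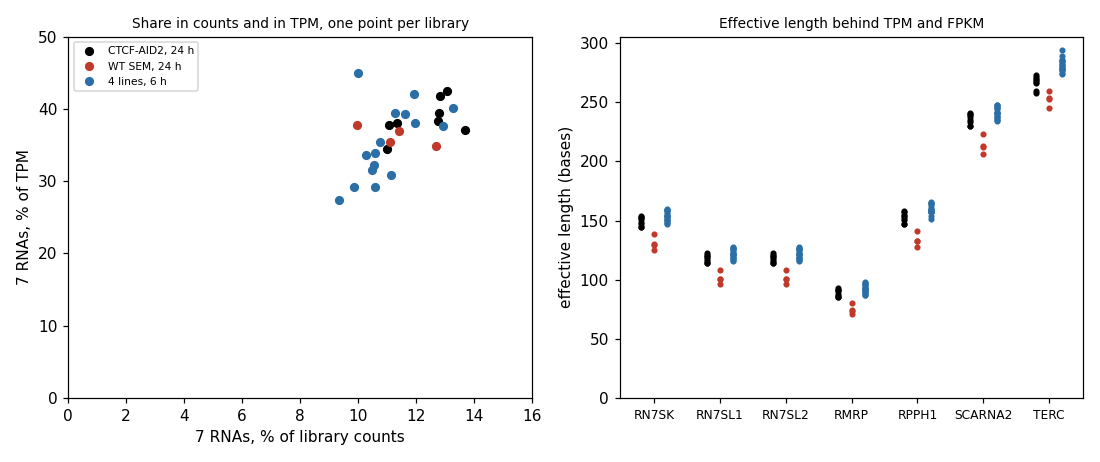
Left, the 7 RNAs together as percent of library counts (x axis) and percent of TPM (y axis), 1 point per library. Right, the effective length in bases behind TPM for each RNA, with CTCF-AID2 in black, WT SEM in red and the 6 h lines in blue. The RN7SK effective length is 125 to 138 bases in the 4 WT SEM libraries and 145 to 160 bases in the other 24.

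The unit changed some group differences. In CTCF-AID2 cells RN7SK averaged 50242 CPM with 5-Ph-IAA and 45347 CPM untreated (log2 ratio 0.15), and 141891 TPM with 5-Ph-IAA and 119397 TPM untreated (log2 ratio 0.25). In the dZF1 line RN7SL2 averaged 23342 CPM with IAA and 28870 CPM untreated (log2 ratio −0.31), but 97718 TPM with IAA and 92810 TPM untreated (log2 ratio 0.07). The effective length of RN7SL2 in that line averaged 116 bases with IAA and 127 bases untreated. The TPM mean with IAA there was raised by replicate 2, the library low in SNORD3A, in which RN7SL2 was at 125918 TPM. In the other 15 libraries of the 6 h experiment RN7SL2 was at 67901 to 110139 TPM. Over the 6 auxin comparisons, the sign of the ratio differed between CPM and TPM in 12 of 42 cases, 4 of them in WT SEM. There the log2 ratios of IAA over untreated were 0.04 in CPM and −0.21 in TPM for RN7SK, 0.21 and −0.04 for RN7SL1, 0.21 and −0.05 for RMRP, and 0.23 and −0.02 for RPPH1. In 11 of 42 cases the groups were apart in CPM and overlapped in TPM, among them SCARNA2 in CTCF-AID2, TERC in WT SEM and RN7SL1 in the dZF1 line, each of which passed the test on counts given below. All tests below use counts.

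The first comparison was CTCF-AID2 with 5-Ph-IAA against untreated at 24 h, in which 4 of the 7 RNAs (1 higher, 3 lower) passed an adjusted p of 0.05 (limma voom with Benjamini-Hochberg adjustment over 13973 genes). In that comparison 58.7% of all genes tested passed (29.2% higher, 29.5% lower). RN7SL1, an RNA of the signal recognition particle, made up 2.46%, 2.41%, 2.38% and 2.87% of counts with 5-Ph-IAA, against 3.77%, 3.55%, 3.52% and 3.45% untreated. The groups did not overlap, as for 4 of the 7 RNAs and 52.1% of genes tested, and RN7SL1 fell by 0.52 on the log2 scale (SE 0.06, adjusted p = 4.36e-06). RN7SL2 made up 2.17%, 1.85%, 1.92% and 2.45% with 5-Ph-IAA, against 2.97%, 3.22%, 2.67% and 3.15% untreated. It fell by 0.54 (SE 0.22, adjusted p = 0.0450) and its groups did not overlap. Fitted on the 8 CTCF-AID2 libraries alone it fell by 0.55 (SE 0.09, adjusted p = 0.000232), whereas the call was lost in DESeq2 (−0.54, adjusted p = 0.0790) and in 7 of 8 fits that left out 1 CTCF-AID2 library.

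Added together, RN7SL1 and RN7SL2 made up 4.25% to 5.32% of counts with 5-Ph-IAA (median 4.47%), against 6.19% to 6.77% untreated (median 6.67%), with no overlap. As 1 row they fell by 0.53 (SE 0.12, adjusted p = 0.00121), and the row passed in each of the 8 fits that left out a CTCF-AID2 library. With all annotated copies added the change was −0.53 (adjusted p = 0.00289). The fraction of the pair assigned to RN7SL2 was 43.4% to 46.9% with 5-Ph-IAA, against 43.1% to 47.7% untreated, so the groups overlapped in the split.

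RN7SK, the scaffold of the P-TEFb inhibitory particle, made up 4.90%, 5.02%, 4.89% and 5.28% with 5-Ph-IAA, against 4.78%, 4.42%, 4.56% and 4.38% untreated. All treated libraries lay above all untreated ones, and RN7SK rose by 0.13 (SE 0.04, adjusted p = 0.0142), a call lost without untreated replicate 4 (0.090, adjusted p = 0.0630). Replication histone transcripts made up 3.18% to 3.79% of counts with 5-Ph-IAA, against 2.97% to 3.17% untreated, and their part in the result was not tested. SCARNA2 made up 0.0407%, 0.0460%, 0.0388% and 0.0466% with 5-Ph-IAA, against 0.0517%, 0.0483%, 0.0497% and 0.0477% untreated. Again the groups did not overlap, and SCARNA2 fell by 0.22 (SE 0.07, adjusted p = 0.00901).

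RMRP, RPPH1 and TERC did not pass, and their groups overlapped. RMRP made up 0.586%, 0.632%, 0.616% and 0.695% with 5-Ph-IAA, against 0.731%, 0.695%, 0.654% and 0.652% untreated (−0.13, SE 0.07, adjusted p = 0.109), and it passed without 5-Ph-IAA replicate 4 (−0.20, adjusted p = 0.0124). RPPH1 made up 1.17%, 1.11%, 1.15% and 1.39% with 5-Ph-IAA, against 1.38%, 1.12%, 1.33% and 1.13% untreated (−0.06, SE 0.08, adjusted p = 0.544). TERC made up 0.0135%, 0.0152%, 0.0125% and 0.0144% with 5-Ph-IAA, against 0.0135%, 0.0131%, 0.0140% and 0.0129% untreated (0.03, SE 0.07, adjusted p = 0.732). Because these are bulk libraries with no counts in the spike-in rows, all changes are relative to the other RNAs, and fewer cells of a type cannot be told apart from less RNA per cell.

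In WT SEM cells, which lack the degron, 2 of the 7 RNAs passed with IAA, both higher, beside 18.9% of all genes tested (9.35% higher). SCARNA2 made up 0.0213% and 0.0239% with IAA, against 0.0158% and 0.0140% untreated. It rose by 0.61 (SE 0.10, adjusted p = 0.000581) with no overlap between groups, as for 6 of the 7 RNAs and 56.4% of genes tested. TERC made up 0.00616% and 0.00683% with IAA, against 0.00537% and 0.00410% untreated, and rose by 0.48 (SE 0.11, adjusted p = 0.00974), a call that was lost without IAA replicate 2 (adjusted p = 0.113) or untreated replicate 2 (adjusted p = 0.121). RN7SL1 made up 2.78% and 2.77% with IAA, against 2.32% and 2.47% untreated (0.22, SE 0.08, adjusted p = 0.0841), which did not pass here but did in DESeq2 (0.22, adjusted p = 0.0445). RMRP made up 0.710% and 0.806% with IAA, against 0.612% and 0.700% untreated (0.22, SE 0.10, adjusted p = 0.134), and RPPH1 1.39% and 1.47% with IAA, against 1.26% and 1.17% untreated (0.25, SE 0.12, adjusted p = 0.166), and neither passed. RN7SK made up 4.58% and 4.54% with IAA, against 4.51% and 4.37% untreated (0.05, SE 0.06, adjusted p = 0.585). SNORD3A was at 0.933% and 1.42% with IAA, against 0.438% and 0.984% untreated. Its groups overlapped, and its part in the result was not tested.

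The WT SEM libraries assigned reads to copies that were nearly empty elsewhere. RN7SL5P held 266557 and 646596 counts with IAA and 299822 and 553047 counts untreated, against 44.7 to 148 counts in the other 24 libraries. RN7SL2 made up 1.61% and 3.07% of counts with IAA, against 1.24% and 2.697% untreated, so that in both treatments replicate 1 was low and replicate 2 high. As 1 row with RN7SL1 it did not pass (0.25, SE 0.16, adjusted p = 0.316), except without untreated replicate 2 (0.53, adjusted p = 0.0491). RN7SL4P followed the same split, with 2790 and 44944 counts with IAA and 1926 and 35914 counts untreated. RN7SKP203 held 51185 to 66347 counts in WT SEM, against 16.1 to 82.2 in the other 24 libraries. SCARNA2 and TERC were also lower in WT SEM than in CTCF-AID2 cells in each library, but the line and the way reads were assigned cannot be told apart.

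**Figure D3:**
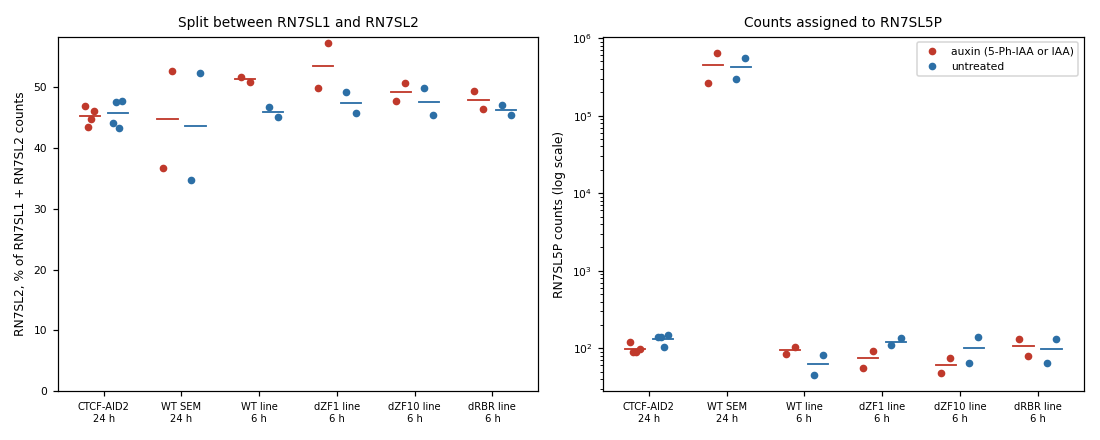
Left, RN7SL2 as percent of RN7SL1 plus RN7SL2 counts per library. Right, counts assigned to RN7SL5P on a log scale. Auxin libraries are left of untreated ones, and lines are group means. The 4 WT SEM libraries hold 266557 to 646596 RN7SL5P counts, and the other 24 hold 44.7 to 148.

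The effects in CTCF-AID2 and WT SEM were then compared directly. The difference (CTCF-AID2 effect minus WT SEM effect) passed for 4 of the 7 RNAs, each below 0, beside 40.2% of all genes tested (20.9% below 0). It was −0.75 for RN7SL1 (SE 0.10, adjusted p = 7.07e-05), −0.84 for SCARNA2 (SE 0.12, adjusted p = 6.53e-05), −0.45 for TERC (SE 0.13, adjusted p = 0.0151) and −0.35 for RMRP (SE 0.12, adjusted p = 0.0285). RN7SL1 and RN7SL2 as 1 row differed by −0.78 (SE 0.20, adjusted p = 0.00649), which was lost without WT SEM IAA replicate 2 (−0.57, adjusted p = 0.0523). The degron, the compound, the line and the read assignment all differ between these arms and cannot be told apart. The RMRP call was lost without WT SEM untreated replicate 1 (−0.25, adjusted p = 0.156) or IAA replicate 2 (−0.25, adjusted p = 0.150), and the TERC call without untreated replicate 2 (−0.27, adjusted p = 0.129) or IAA replicate 2 (−0.36, adjusted p = 0.0885).

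At 6 h, the same question was asked in 4 lines. In the WT line, 0 of the 7 RNAs passed (limma, adjusted p), with 0 at an unadjusted p under 0.05 and 0 in edgeR and DESeq2, beside 13.7% of all genes. In the dZF10 line 0 passed, with 1 (RN7SL1) at an unadjusted p under 0.05 and 0 in edgeR and DESeq2, beside 18.1% of all genes. In the dRBR line 0 passed, with 0 unadjusted and 0 in the other tools, beside 10.5% of all genes. RN7SL1 and RN7SL2 together made up 5.80% and 5.89% with IAA in the WT line, against 5.52% and 5.95% untreated. In the dZF10 line they made up 4.40% and 4.73% with IAA, against 5.59% and 5.53% untreated, a change of −0.29 (SE 0.13, adjusted p = 0.157). In the dRBR line they made up 6.79% and 5.13% with IAA, against 6.05% and 5.36% untreated. Of these 3 lines, only dZF10 had groups of the summed share that did not overlap. Taken singly, 2 of the 7 RNAs did not overlap in the WT line (beside 65.3% of genes), 2 in the dZF10 line (64.1%) and 1 in the dRBR line (61.8%).

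In the dZF1 line 4 of the 7 RNAs passed, each lower, beside 33.6% of all genes (16.4% lower), and 4 did not overlap between groups, beside 58.3% of genes. RN7SL1 made up 2.18% and 1.89% with IAA, against 2.87% and 3.58% untreated, and fell by 0.68 (SE 0.14, adjusted p = 0.00340). Without IAA replicate 2, the library low in SNORD3A, it fell by 0.59 (adjusted p = 0.0147). SCARNA2 made up 0.0261% and 0.0159% with IAA, against 0.0324% and 0.0402% untreated, and fell by 0.84 (SE 0.20, adjusted p = 0.00781). RMRP made up 0.542% and 0.292% with IAA, against 0.538% and 0.709% untreated, and fell by 0.64 (SE 0.23, adjusted p = 0.0475), although its groups overlapped and edgeR did not pass it (−0.60, adjusted p = 0.0593). TERC made up 0.00757% and 0.00751% with IAA, against 0.0105% and 0.0109% untreated, and fell by 0.52 (SE 0.15, adjusted p = 0.0198).

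Without that library RMRP changed by −0.22 (adjusted p = 0.392), SCARNA2 by −0.50 (adjusted p = 0.0502) and TERC by −0.53 (adjusted p = 0.0518), so these 3 calls were lost and the RN7SL1 call was kept. In this and each other fit that leaves 1 library in a group, the lone library is assumed to vary like those of the other groups. They were also lost without untreated replicate 2 (RMRP −0.42, adjusted p = 0.306, SCARNA2 −0.66, adjusted p = 0.0842, TERC −0.47, adjusted p = 0.115), and TERC without untreated replicate 1 (−0.57, adjusted p = 0.0542). As 1 row, RN7SL1 and RN7SL2 fell by 0.50 (SE 0.13, adjusted p = 0.0153), a call lost without untreated replicate 2 (−0.36, adjusted p = 0.144). Fitted on the 4 dZF1 libraries alone, limma passed 0 of the 7, RN7SL1 included (−0.68, adjusted p = 0.163). In dZF1 IAA replicate 2, RN7SK made up 4.56% of counts, the highest of the 6 h experiment, against 3.36% to 4.49% in the other 15 libraries. With its copies RN7SK made up 3.52% and 4.35% in untreated replicates 1 and 2 of that line. The difference between the dZF1 and WT line effects did not pass for any of the 7 (0 of 7 in limma, 3 at an unadjusted p under 0.05, 0 in edgeR and DESeq2, beside 0.331% of all genes). Without dZF1 IAA replicate 1, which leaves the library low in SNORD3A as the sole treated one, with its spread taken from the other groups, the difference passed for RN7SL1 (−0.65, adjusted p = 0.0256), RMRP (−1.05, adjusted p = 0.00466) and SCARNA2 (−1.17, adjusted p = 0.00295). For the dZF10 and dRBR effects against that of the WT line, 0 of 7 passed (0.0432% and 0% of all genes), and for mean levels of the dZF1, dZF10 and dRBR lines against the WT line 0 of 7 passed in each (0.0935%, 0.0575% and 0% of all genes), with 0 at an unadjusted p under 0.05 and 0 in edgeR and DESeq2 in these 5 comparisons. Without dZF1 IAA replicate 1, the mean level of the dZF1 line was lower than that of the WT line for RMRP (−0.37, adjusted p = 0.0275) and SCARNA2 (−0.43, adjusted p = 0.0140).

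**Figure D4:**
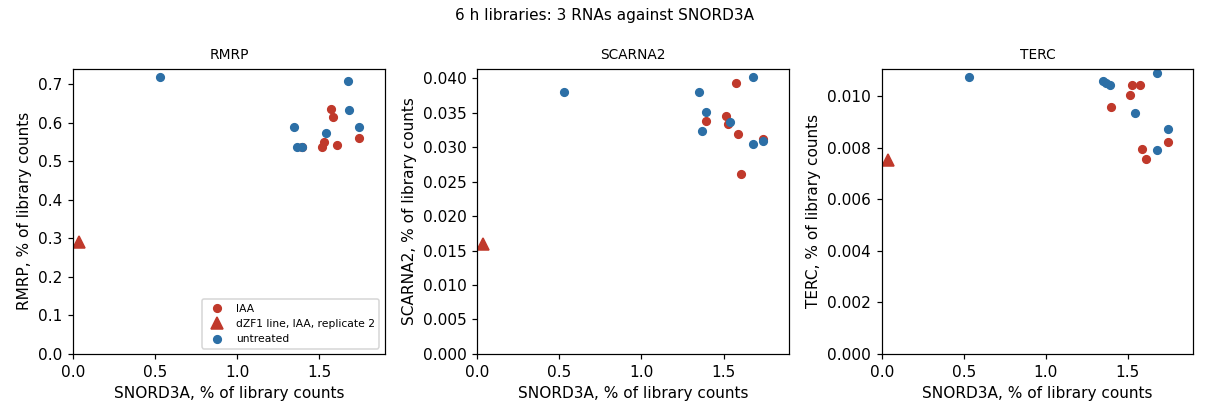
RMRP, SCARNA2 and TERC as percent of library counts (y axis) against SNORD3A (x axis) in the 16 libraries of the 6 h experiment, IAA in red and untreated in blue. The triangle is the dZF1 library with IAA, replicate 2, at 0.0366% SNORD3A and 0.292% RMRP.

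Averaged over the 4 lines, 1 of the 7 RNAs passed, lower, beside 51.5% of all genes (26.4% lower). RN7SL1 changed by −0.28 (SE 0.07, adjusted p = 0.00494), and the call held in each of the 16 fits that left out a library. The dZF1 line, at −0.68, was the only one to pass singly, beside −0.33 for dZF10, 0.02 for dRBR and −0.12 for the WT line. The percentage of the pair assigned to RN7SL2 was 51.6% and 50.8% with IAA in the WT line, against 46.6% and 45.1% untreated. In the dZF1 line it was 49.8% and 57.1% with IAA, against 49.1% and 45.6% untreated. These groups did not overlap in either line, unlike those of dZF10 (47.6% and 50.5% with IAA, against 49.8% and 45.3% untreated) and dRBR (49.3% and 46.3% with IAA, against 47.0% and 45.3% untreated), and the part of the split in the RN7SL1 values was not tested beyond the summed row. RN7SL2 changed by −0.07 (SE 0.08, adjusted p = 0.489), and the 2 as 1 row by −0.17 (SE 0.07, adjusted p = 0.0466). The call on the row was lost in 11 of 16 fits that left out a library and with no filter on low counts (−0.15, adjusted p = 0.0733). RN7SK (0.07, SE 0.08, adjusted p = 0.487) and RPPH1 (−0.08, SE 0.12, adjusted p = 0.605) did not pass. RMRP (−0.22, adjusted p = 0.127) and SCARNA2 (−0.22, adjusted p = 0.0854) did not either, but passed without dZF1 IAA replicate 1 (RMRP −0.33, adjusted p = 0.00187, SCARNA2 −0.30, adjusted p = 0.00321), and TERC (−0.15, adjusted p = 0.116) passed without dZF10 untreated replicate 1 (−0.20, adjusted p = 0.0290).

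**Figure D5:**
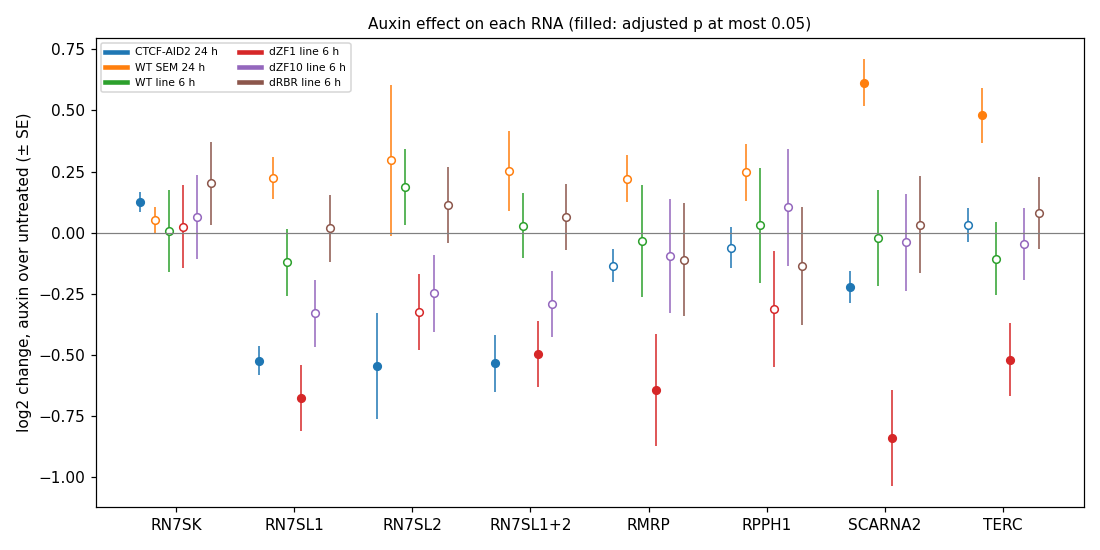
Log2 change (auxin over untreated, ± SE) for each RNA and for RN7SL1 and RN7SL2 as 1 row, in the 6 auxin comparisons. Filled points passed an adjusted p of 0.05. RN7SL1 is at −0.52 in CTCF-AID2 and −0.68 in the dZF1 line.

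The protein partners of these RNAs were followed in CTCF-AID2 cells at 24 h from lists chosen with earlier results known, in a comparison in which 58.7% of all genes passed (29.2% higher, 29.5% lower). For the 7SK particle and P-TEFb, 6 of 10 genes rose and 0 fell, with a median change of 0.21 against −0.0024 over all genes, and the kinase CDK9 (0.23, adjusted p = 1.65e-05) and the elongation factor scaffold AFF4 (0.23, adjusted p = 2.98e-05) were the 2 with the smallest adjusted p. For the signal recognition particle and its receptor, 2 of 8 rose and 4 fell (median −0.07), led by the receptor subunit SRPRB (−0.42, adjusted p = 1.47e-07) and SRP14 (0.32, adjusted p = 3.46e-06). For the proteins of RNase P and RNase MRP, 0 of 11 rose and 5 fell (median −0.12), led by RPP40 (−1.09, adjusted p = 2.04e-09) and POP1 (−0.50, adjusted p = 9.97e-09). For telomerase and H/ACA proteins, 0 of 11 rose and 7 fell (median −0.25), among them the pseudouridine synthase DKC1 (−0.40, adjusted p = 7.34e-09) and NHP2 (−0.37, adjusted p = 8.07e-06). In WT SEM with IAA, 0 rose and 0 fell in the 7SK list, and 0 and 4 in the signal recognition particle list. The counts there were 1 and 1 for the RNase list and 0 and 2 for the telomerase list. Of all genes, 9.35% were higher and 9.57% lower. In the mean over the 6 h lines the 4 lists had, in this order, 3 and 4, 3 and 1, 3 and 0, and 3 and 4. Of all genes, 51.5% passed in that mean.

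Of 18 RNA polymerase III subunits, 1 rose and 15 fell in CTCF-AID2 cells at 24 h (median of the subunits −0.25). Of all genes there, 29.2% were higher and 29.5% lower. The subunits were led by POLR3D (−0.51, adjusted p = 2.01e-09) and POLR3B (−0.98, adjusted p = 1.45e-08). Of 20 factors that act with the polymerase, 4 rose and 11 fell (median −0.13), led by POU2F1 (0.41, adjusted p = 4.02e-07), which binds the octamer of snRNA promoters, and GTF3C6 (−0.37, adjusted p = 1.64e-06), a subunit of TFIIIC. In WT SEM with IAA, 1 of the 18 subunits rose and 3 fell, where 18.9% of all genes passed, and in the mean over the 6 h lines 3 rose and 6 fell, where 51.5% of all genes passed, so both counts were near the share of all genes. Of 5 other polymerase III RNAs that were tested, 1 fell at 24 h in CTCF-AID2 cells, the Y RNA RNY3 (−0.78, adjusted p = 0.0369), and 11 of the 16 listed were below the filter on low counts.

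The genes whose level followed each RNA most closely were sought over the 28 libraries, with log2 CPM centred within each experiment, as a description over 13614 genes. SCARNA2 and TERC followed each other (Pearson r = 0.94, Spearman rho = 0.96), and the genes closest to SCARNA2 were ALKBH7 (r = 0.98), GAMT (r = 0.97) and FASTK (r = 0.96). RN7SL1 and RN7SL2 had r = 0.67 (rho = 0.73), and RN7SL1 was closest to TNFRSF1B (r = 0.89). RN7SK was closest to 3 replication histone genes, HIST1H4C (r = 0.78), HIST1H2AG (r = 0.74) and HIST1H4L (r = 0.70). Libraries of a group share their treatment and line, so these points are not independent. Centring within each experiment left the difference between WT SEM and CTCF-AID2 cells in the 24 h values. SCARNA2 made up 0.0140% to 0.0239% of counts in WT SEM, against 0.0159% to 0.0517% in the other 24 libraries. TERC made up 0.00410% to 0.00683% in WT SEM, against 0.00751% to 0.0152% in the other 24. The part of this difference in the correlations was not tested.

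Genes next to or overlapping 4 of the RNAs were read in CTCF-AID2 cells at 24 h, where 58.7% of all genes tested passed. GSTA4, the protein-coding gene nearest to RN7SK, rose by 0.87 (SE 0.06, adjusted p = 1.36e-08), and CCDC107, nearest to RMRP, rose by 0.58 (SE 0.04, adjusted p = 4.89e-08). TMEM167B, nearest to SCARNA2, fell by 0.17 (SE 0.04, adjusted p = 0.00400). PARP2, which overlaps RPPH1 at its position in the later annotation (−0.01, SE 0.04, adjusted p = 0.873), did not pass. It was lower in WT SEM with IAA (−0.27, adjusted p = 0.00579). In the mean over the 6 h lines it was higher (0.24, adjusted p = 0.00123), as were GSTA4 (0.39, adjusted p = 0.000383) and CCDC107 (0.23, adjusted p = 0.00417).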

How the data were processed

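SEM libraries were rRNA-depleted, paired-end and stranded per the study's methods, while the labels also name a 3′ kit. The submitters' processing notes name Trim Galore 0.6.3, STAR 2.7.9a, RSEM 1.3.1 and hg19. The authors deposited RSEM expected counts, TPM and FPKM per gene and library. Expected counts were rounded to whole numbers. Genes with CPM above 1 in at least 1 library of an experiment were fitted with limma voom (limma 3.58.1, TMM factors from edgeR 4.0.16), 1 mean per group, separately for the 24 h (12 libraries) and 6 h (16 libraries) experiments, adjusted over all genes tested. Effective lengths were derived from deposited FPKM and counts, and shares per length from deposited TPM. edgeR, DESeq2 1.42.0, other scalings, filters, sample sets, a replicate block and leaving out each library were alternatives. Copies added to 1 row, and TPM in place of CPM, were chosen after seeing the data. The fit was tested on simulated data. Sequences were read with samtools 1.23.1 from GRCh37 and aligned with Biopython 1.88. The 7 RNAs and the gene lists were chosen with earlier results of these data known. Named partner genes are the 2 of each list with the smallest adjusted p, and followed genes the 3 with the highest r. The authors' merged matrices were not used here. The sequences, positions and neighbouring genes of RN7SL1, RN7SL2 and RN7SL5P are not reported here.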

Additional observations from a re-analysis of the deposited data

Results flagged for a closer look

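RN7SL1 in CTCF-AID2 cells with 5-Ph-IAA had 1 library far from the other 3, replicate 4 at 2.87% of library counts, the next highest being 2.46%. The test covered 8 measures (the 7 RNAs and the sum of RN7SL1 and RN7SL2) in the same 2 groups of 4 libraries, so its 16 results are not independent, 1 stood out, and chance flags about 1 in 20. Replicate 4 was also the highest of its group for RN7SK, RN7SL2, RMRP, RPPH1 and SCARNA2.

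The 24 h effect of auxin differed between CTCF-AID2 and WT SEM cells, by the interaction term of the fit, for RN7SL1 (−0.75 on the log2 scale), RMRP (−0.35), SCARNA2 (−0.84) and TERC (−0.45), and for RN7SL1 and RN7SL2 as 1 row (−0.78). The cell line, the compound and the assignment of reads to copies differ between the arms as well.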

How the results depend on the processing

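Values changed sign under an alternative 118 times, 108 of them on leaving out a library, and in 0 of these did either value pass the threshold. The 7 RNAs took 12.3% of counts in CTCF-AID2 cells, 11.3% in WT SEM and 11.03% in the 6 h lines on average, and their counts, RN7SK and RN7SL included, amounted to 13.8%, 12.6% and 12.2% of a total that leaves out RN7SK, RN7SL and their copies. Fitted on the groups compared alone, the number of the 7 that passed became 4 in WT SEM, 1 in the WT line, 0 in the dZF1 line and 1 in the dZF10 line, and the summed pair changed by −0.50 in the dZF1 line (adjusted p = 0.185, lost) and by −0.29 in the dZF10 line (adjusted p = 0.0464, gained). DESeq2 passed 2 of the 7 in the mean over the 6 h lines. With no filter on low counts, the summed pair in that mean changed by −0.15 (adjusted p = 0.0733, lost). The cause of these changes was not tested.

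Replicate numbers were not taken to pair the samples, since the labels name no shared source. Of 9 same-numbered pairs, 5 correlated above 0.1, so the correlations alone did not decide against pairing. RN7SK with its copies made up 3.58%, 3.52%, 3.37% and 3.61% of counts in untreated replicate 1 (WT, dZF1, dZF10 and dRBR lines). In untreated replicate 2 it made up 4.45%, 4.35%, 4.17% and 3.79%. With IAA only the dRBR line went the other way (4.49% and 3.94%). This difference was not tested beyond the replicate block. Same-numbered libraries of CTCF-AID2 (4 pairs) correlated between −0.27 and 0.10 in their deviations, and the single pairs of WT SEM at 0.070, the WT line at 0.23, dZF1 at −0.27, dZF10 at 0.37 and dRBR at 0.18. With the replicate block, the summed pair in the mean over the 6 h lines changed by −0.17 (adjusted p = 0.0597, lost), and no other call on the 7 RNAs or the summed pair changed.

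Leaving out 1 library, the number of the 7 that passed ran between 2 and 5 in CTCF-AID2 at 24 h, 1 and 2 in WT SEM, 2 and 5 for the difference at 24 h, 1 and 4 for the dZF1 line at 6 h, 1 and 3 in the mean over the 6 h lines, 0 and 3 for the dZF1 effect minus the WT line effect, 0 and 2 for the dZF1 line against the WT line. The summed pair ran between −1.07 and −0.51 for the difference at 24 h, −0.63 and −0.36 for the dZF1 line at 6 h, −0.23 and −0.11 in the mean over the 6 h lines. Ranges that crossed 0 on leaving out a library follow, on the log2 scale. For CTCF-AID2 at 24 h, TERC ran between −0.010 and 0.084. For WT SEM at 24 h, the summed pair ran between −0.042 and 0.53, RN7SL2 between −0.29 and 0.87. For the WT line at 6 h, the summed pair ran between −0.038 and 0.091, RN7SK between −0.16 and 0.17, RMRP between −0.090 and 0.020, RPPH1 between −0.072 and 0.13, SCARNA2 between −0.13 and 0.078, TERC between −0.24 and 0.032. For the dZF1 line at 6 h, RN7SK ran between −0.18 and 0.22, RPPH1 between −0.63 and 0.011. For the dZF10 line at 6 h, RN7SK ran between −0.098 and 0.22, RMRP between −0.19 and 0.0094, RPPH1 between −0.036 and 0.25, SCARNA2 between −0.20 and 0.12, TERC between −0.25 and 0.18. For the dRBR line at 6 h, the summed pair ran between −0.17 and 0.30, RN7SL1 between −0.17 and 0.21, RN7SL2 between −0.16 and 0.39, RMRP between −0.27 and 0.065, RPPH1 between −0.43 and 0.19, SCARNA2 between −0.11 and 0.19, TERC between −0.031 and 0.18. For the mean over the 6 h lines, RN7SL2 ran between −0.14 and 0.0019, RPPH1 between −0.16 and 0.0022. For the dZF1 effect minus the WT line effect, RN7SK ran between −0.18 and 0.21. For the dZF10 effect minus the WT line effect, RN7SK ran between −0.11 and 0.23, RMRP between −0.16 and 0.042, RPPH1 between −0.067 and 0.22, SCARNA2 between −0.18 and 0.15, TERC between −0.15 and 0.28. For the dRBR effect minus the WT line effect, the summed pair ran between −0.19 and 0.27, RN7SL1 between −0.050 and 0.33, RN7SL2 between −0.35 and 0.21, RMRP between −0.24 and 0.099, RPPH1 between −0.46 and 0.16, SCARNA2 between −0.092 and 0.21. For the dZF1 line against the WT line, RN7SK ran between −0.10 and 0.098, RMRP between −0.37 and 0.062, RPPH1 between −0.17 and 0.15, TERC between −0.095 and 0.047. For the dZF10 line against the WT line, RN7SK ran between −0.16 and 0.016, RPPH1 between −0.097 and 0.045, SCARNA2 between −0.050 and 0.11, TERC between −0.14 and 0.078. For the dRBR line against the WT line, the summed pair ran between −0.10 and 0.13, RN7SK between −0.094 and 0.075, RN7SL1 between −0.035 and 0.15, RN7SL2 between −0.17 and 0.11. Other sign changes, all of values near 0, were in RN7SK for the WT line at 6 h (−0.00083 in edgeR, −0.0030 in DESeq2, −0.0022 with CPM above 1 in every library), in SCARNA2 there (0.0083 with no filter), in RN7SK for the dZF1 line against the WT line (−0.0025 with RLE factors, −0.013 with library sizes alone, −0.00017 with CPM above 1 in every library, −0.0028 with scaling without RN7SK and RN7SL) and in RPPH1 for that comparison (0.0068 in edgeR, 0.0028 in DESeq2).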
